A study of Mus musculus with 6 samples.

Results

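Interferon-induced genes of the IFIT and IFITM families, with Isg15, Usp18 and Ifi44, were examined in peripheral T-cell lymphomas (PTCL) of Dnmt3b+/- mice. The genes were chosen by name: Ifit1, Ifit2, Ifit3, Ifit3b, Ifitm1, Ifitm2, Ifitm3, Ifi44, Isg15 and Usp18. All 10 were found among the 34245 measured genes, which carry 34197 symbols. RNA-seq had been done on 3 independent tumors, each from a lymph node of a terminally sick FVB/N mouse. Each mouse carried 1 disrupted allele of Dnmt3b, a DNA methyltransferase. The ages of the mice are not given in the sources used here. The tumors form a single group with 1 library each, so differences between tumors have no replicate check and were not tested. Tumors 1, 2 and 3 had a depth of 30726570, 18969988 and 20770928 reads. Expression is given in FPKM, a count of fragments per gene corrected for exon length and sequencing depth.

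The T-cell content of the tissue was looked at through 9 T-cell markers. All 9 had a mean of at least 1 FPKM, as had 11190 of the 34197 symbols and all 10 macrophage markers. This level alone therefore does not mark T cells. The T-cell markers summed to 1296, 973 and 1354 FPKM in tumors 1, 2 and 3. Cd8b1, a chain of the CD8 co-receptor, was the most abundant by its mean, with 435, 166 and 443 FPKM, although Lck, with 208 FPKM, exceeded it in tumor 2. Cd4 had 28.4, 4.28 and 8.22 FPKM. Each tumor therefore carried abundant T-cell transcripts, with CD8 well above CD4. The libraries come from bulk tissue, in which fewer cells of a type and less RNA per cell cannot be told apart.

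Type I interferons bind a receptor on the cell surface and act through the kinases JAK1 and TYK2 and a transcription factor complex with IRF9, which recognizes a promoter motif called the interferon-stimulated response element (ISRE). IFIT proteins bind viral RNA and restrict its translation, IFITM proteins sit in membranes and hinder the entry of enveloped viruses, and ISG15 is a ubiquitin-like protein that is attached to other proteins. USP18 takes ISG15 off again and dampens signaling at the type I interferon receptor.

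Isg15, Usp18 and the 4 IFIT genes were highest in tumor 2, intermediate in tumor 3 and lowest in tumor 1, although for Ifit2 tumors 1 and 3 were nearly equal and exchanged places when each library was rescaled to the same FPKM sum. The 3 IFITM genes had another order, highest in tumor 1, intermediate in tumor 2 and lowest in tumor 3. Ifi44 was low in each tumor. A mean of at least 1 FPKM was reached by 11190 genes, among them 9 of the 10 genes studied, all but Ifi44. The order of tumor 2 over 3 over 1 was found in 16.8% of the 11190 genes and in 6 of these 9. For the order of tumor 1 over 2 over 3 the share was 20.5%, against 3 of the 9.

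**Figure D1:**
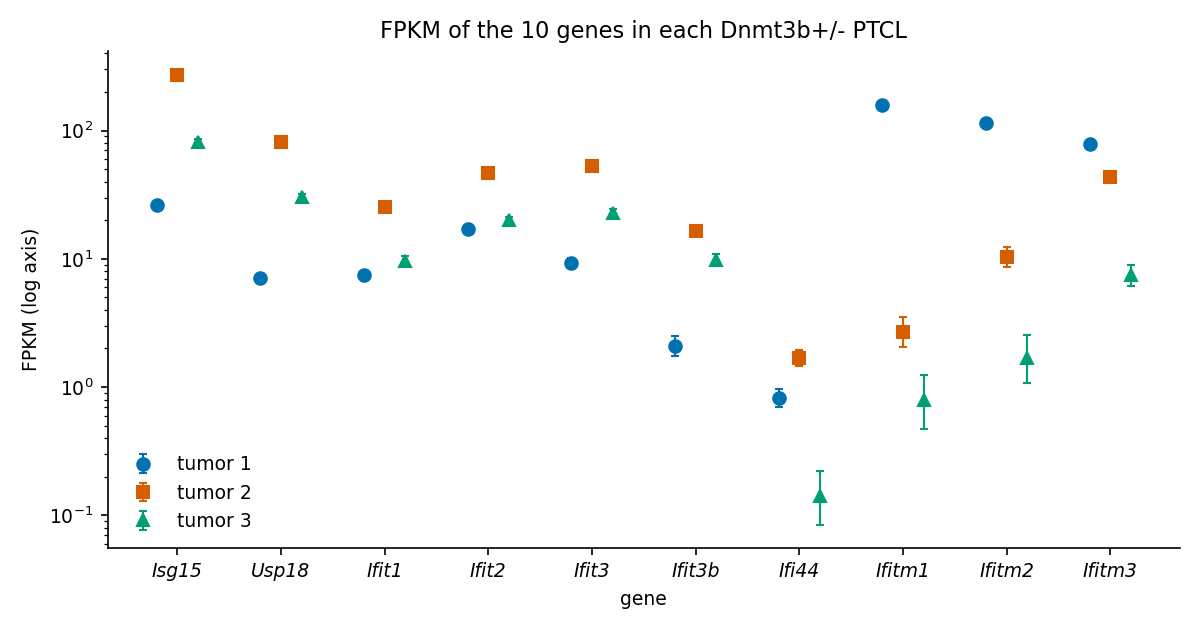
FPKM of the 10 genes (log axis) in tumors 1, 2 and 3, 1 point per tumor, with 95% intervals that cover counting error only. Isg15 runs from 26.0 in tumor 1 to 270.3 in tumor 2, whereas Ifitm1 runs from 0.792 in tumor 3 to 158 in tumor 1.

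Tumor 2 was the highest of the 3 for 33.7% of the 11190 genes and for 6 of the 9. It stood at least 2-fold above the next tumor, on the scale of log2(FPKM + 0.1), for 5.30% of genes and for 5 of the 9, namely Isg15, Usp18, Ifit1, Ifit2 and Ifit3. With a threshold of 3-fold this count was 1, Isg15, but the share of all genes at 3-fold is not given here. Tumor 1 was the highest for 50.6% of genes and for 3 of the 9, a smaller share than among genes at large. It stood at least 2-fold above the next tumor for 6.30% of genes and for 2 of the 9, Ifitm1 and Ifitm2. At 3-fold the count for tumor 1 was also 2. Of the 34197 symbols, 36.7% exceeded 0.2 FPKM in every tumor, as did 9 of the 10 genes, the exception being Ifi44.

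**Figure D2:**
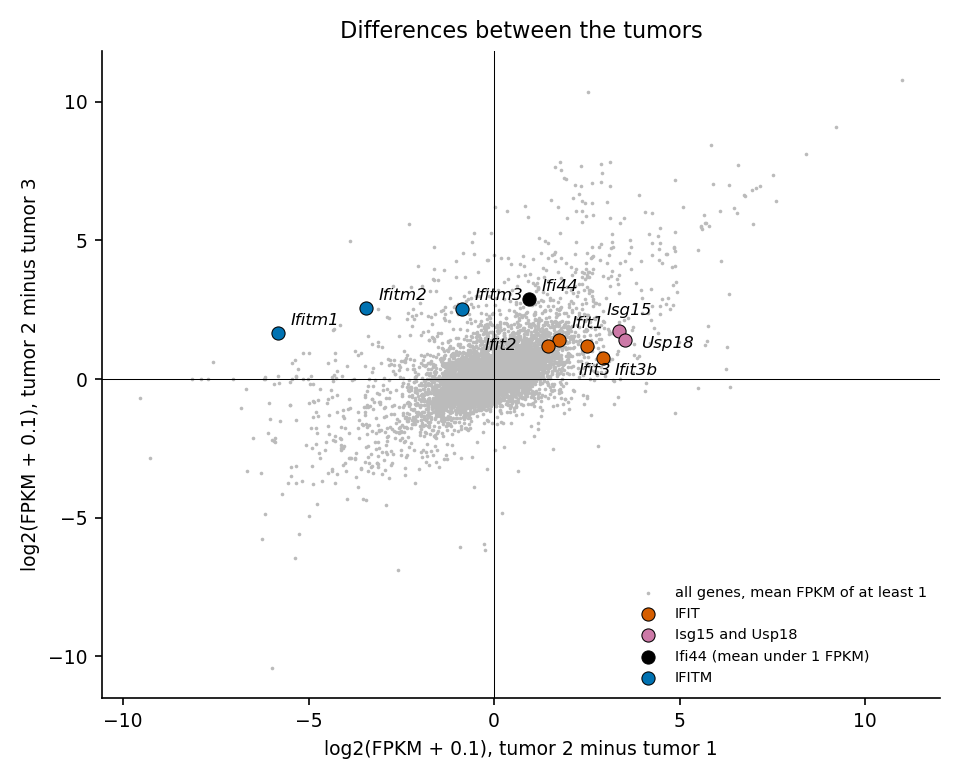
Log2 difference of tumor 2 from tumor 1 (horizontal) and from tumor 3 (vertical) for each of 11190 genes (grey) and for the 10 genes (colored). The IFIT genes, Isg15 and Usp18 lie to the right, between 1.44 and 3.51 on the horizontal axis, and the IFITM genes lie to the left, between -5.82 and -0.86.

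Isg15 (ENSMUSG00000035692) lies on chromosome 4 of mm10, minus strand, from 156199424 to 156200818. Tumor 1 had 26.0 FPKM of it, tumor 2 had 270.3 and tumor 3 had 81.7, and the mean was 126 ± 128 (SD, n = 3). Tumor 2 was 10.4-fold above tumor 1 (95% interval of 9.52 to 11.3 from 3877 and 605 reads) and 3.31-fold above tumor 3. Isg15 was thus high in tumor 2, intermediate in tumor 3 and low in tumor 1, with steps far wider than counting error. Without tumor 2 its mean was 53.9 FPKM.

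Usp18 (ENSMUSG00000030107), whose product cleaves ISG15 from its targets, lies on the plus strand of chromosome 6 from 121245906 to 121270917. It had 7.05, 81.5 and 30.4 FPKM in tumors 1, 2 and 3, with a mean of 39.7 ± 38.1 (SD, n = 3) that was 18.7 without tumor 2. Its ratio of tumor 2 to tumor 1 was 11.6 (10.6 to 12.6), and tumor 2 was 2.68-fold above tumor 3. Usp18 thereby followed Isg15 from tumor to tumor. The ratio of Isg15 to Usp18 FPKM was 3.70, 3.32 and 2.69 in the 3 tumors, a range of 1.38-fold, while Isg15 itself ranged over 10.4-fold.

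Because the genes moved together in groups, their promoters were searched on both strands for the core of the ISRE, taken as GAAA, any 2 bases and GAAA. RefSeq promoter windows (build GRCm38.p6, 250 bases before the transcription start and 50 bases from it on) were found for 9 of the 10 genes, all but Usp18. The core occurred in 3.44% of 32851 windows and in those of 6 of the 9 genes, Isg15, Ifit1, Ifit3, Ifit3b, Ifitm2 and Ifitm3. It was not found in the windows of Ifit2, Ifitm1 and Ifi44. The Ifitm1 window (chr7:140967826-140968125, plus strand) lies within the annotated gene, past its start at 140967221. The bases before that start were not searched. In the Isg15 window 3 overlapping matches stood from -78 to -57, counted from the start base as 1, and this is shown as the densest run of the motif among these genes (chr4:156200850-156200921, minus strand, upstream of the gene). Capitals mark the ISRE cores here and in the other sequences, and a match is a description of the letters only.
Isg15: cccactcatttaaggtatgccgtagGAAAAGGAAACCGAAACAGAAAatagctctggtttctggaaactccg

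The 4 IFIT genes lie on the plus strand of chromosome 19, in the order Ifit2, Ifit3, Ifit3b and Ifit1, between 34550694 and 34650009. Ifit1 (ENSMUSG00000034459), whose product recognizes the cap of foreign RNA, had 7.46, 25.4 and 9.59 FPKM in tumors 1, 2 and 3 and a mean of 14.2 ± 9.81 (SD, n = 3), or 8.53 without tumor 2. Tumor 2 was 3.41-fold above tumor 1 (3.09 to 3.76) and 2.65-fold above tumor 3. Tumors 1 and 3 were close, at a ratio of 1.28 (1.14 to 1.45), so that Ifit1 was set apart mainly by tumor 2.

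Ifit2 (ENSMUSG00000045932), another RNA-binding member, had 17.1, 46.6 and 20.2 FPKM in tumors 1, 2 and 3, and its mean was 28.0 ± 16.2 (SD, n = 3). The ratio of tumor 2 to tumor 1 was 2.72 (2.58 to 2.87), the smallest among the IFIT genes. Tumor 3 was 1.18-fold above tumor 1 (1.10 to 1.26), and after rescaling of the libraries to equal sums it lay below it, by -0.0076 on the log2 scale. Like Ifit1, it was high in tumor 2 and near level in the other tumors.

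Ifit3 (ENSMUSG00000074896) had 9.25, 52.5 and 22.8 FPKM in tumors 1, 2 and 3, with a mean of 28.2 ± 22.1 (SD, n = 3) that was 16.0 without tumor 2. Tumor 2 was 5.68-fold above tumor 1 (5.14 to 6.29) and 2.31-fold above tumor 3. Its close paralog Ifit3b (ENSMUSG00000062488) had 2.10, 16.6 and 9.87 FPKM, with a mean of 9.51 ± 7.23 (SD, n = 3), or 5.98 without tumor 2. For Ifit3b the ratio of tumor 2 to tumor 1 was 7.89 (6.51 to 9.61), the largest in the family, and that of tumor 2 to tumor 3 was 1.68. Both paralogs were lowest in tumor 1, and the ratio of Ifit3 to Ifit3b went from 4.41 in tumor 1 to 3.17 in tumor 2 and 2.31 in tumor 3. These values are uncertain, since 18.5% of all 150-base stretches of Ifit3 and 16.0% of those of Ifit3b occur in the other gene. Reads from such stretches map to both genes and may have been dropped by the mapping quality filter.

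The promoters of Ifit1, Ifit3 and Ifit3b are shown because each held 2 ISRE cores, on the opposite strand, where the core reads TTTC, any 2 bases and TTTC. The stretch of Ifit1 is chr19:34640760-34640838, that of Ifit3 is chr19:34583348-34583441 and that of Ifit3b is chr19:34607744-34607837, all on the plus strand and upstream of the annotated genes. The stretches of Ifit3 and Ifit3b were equal at 94 of 94 bases, although the ratio of the genes' FPKM differed between tumors.
Ifit1: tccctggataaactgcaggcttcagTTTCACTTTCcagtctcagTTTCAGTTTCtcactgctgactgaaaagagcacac
Ifit3: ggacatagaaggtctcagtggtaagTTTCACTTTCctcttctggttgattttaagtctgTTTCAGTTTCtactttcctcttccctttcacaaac
Ifit3b: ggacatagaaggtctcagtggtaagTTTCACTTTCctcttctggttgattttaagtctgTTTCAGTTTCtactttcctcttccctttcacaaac

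Summed over the 4 IFIT genes, the level was 35.9, 141 and 62.5 FPKM in tumors 1, 2 and 3. The makeup of this sum also differed. Ifit2 contributed 47.7% in tumor 1, against 33.0% and 32.4% in tumors 2 and 3. Ifit3 contributed 25.7% in tumor 1, 37.2% in tumor 2 and 36.5% in tumor 3, so that it exceeded Ifit2 in tumors 2 and 3. Ifit3b made up 5.84% of the sum in tumor 1, 11.7% in tumor 2 and 15.8% in tumor 3.

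Other genes of the cluster did not share this pattern to the same degree. Ifit1bl1, which lies between Ifit3 and Ifit3b on the minus strand, had 32.9, 34.8 and 39.5 FPKM in tumors 1, 2 and 3. Ifit1bl2, next to Ifit1, had 0.609, 1.28 and 1.26 FPKM. The nearly level Ifit1bl1 was therefore the most abundant gene of the cluster in tumors 1 and 3, and Ifit3 in tumor 2. Lipa, which flanks the cluster next to Ifit2 and was named after its values were seen, was highest in tumor 1, with 27.9 FPKM against 7.97 and 9.18 in tumors 2 and 3.

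Ifi44 (ENSMUSG00000028037), an interferon-induced gene on the minus strand of chromosome 3 from 151730922 to 151749960, was the lowest of the 10 genes in every tumor. Its values of 0.823, 1.69 and 0.141 FPKM in tumors 1, 2 and 3 rested on 155, 196 and 18 reads and had a mean of 0.883 ± 0.774 (SD, n = 3), or 0.482 without tumor 2. Tumor 2 was 2.05-fold above tumor 1 (1.65 to 2.55) and 11.9-fold above tumor 3 (7.35 to 20.5). Ifi44 thus shared the high value in tumor 2 with the IFIT genes, but was lowest in tumor 3. Its paralog Ifi44l had no read in the 3 tumors.

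The 3 IFITM genes lie within a short region of chromosome 7. Ifitm1 (ENSMUSG00000025491), found mainly at the cell surface, spans 140967221 to 140969825 on the plus strand and had 158, 2.70 and 0.792 FPKM in tumors 1, 2 and 3. Its mean of 53.9 ± 90.3 (SD, n = 3) rested on tumor 1, and without that tumor it was 1.75. Tumor 1 was 58.6-fold above tumor 2 (45.1 to 77.7) and 199.6-fold above tumor 3 (126 to 337). This tumor held 97.8% of all Ifitm1 FPKM, from 5316 reads against 56 in tumor 2 and 18 in tumor 3. Ifitm1 was the most abundant of the 10 genes in tumor 1 and was at rank 9 among them in the other tumors. The width of its range on the log2 scale lay at percentile 99.8 of the 11190 genes.

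Ifitm2 (ENSMUSG00000060591), an endosomal member, spans 140954837 to 140955987 on the minus strand. Its FPKM of 114, 10.4 and 1.69 in tumors 1, 2 and 3 gave a mean of 42.2 ± 62.7 (SD, n = 3), which was 6.04 without tumor 1. Tumor 1 was 11.0-fold above tumor 2 (9.22 to 13.3) and 67.7-fold above tumor 3 (45.0 to 106.9). As with Ifitm1, tumor 1 was high and tumor 3 was lowest, with 23 reads. The value of Ifitm2 is uncertain because the gene overlaps Gm45717 on the same strand, with which 23.5% of its 150-base stretches are shared. Gm45717, named after its values were seen, had 77.6, 8.84 and 1.46 FPKM.

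Ifitm3 (ENSMUSG00000025492), the endosomal member best known for restricting influenza virus, spans 141009586 to 141010770 on the minus strand. Tumor 1 had 79.1 FPKM, tumor 2 had 43.6 and tumor 3 had 7.46, and the mean was 43.4 ± 35.8 (SD, n = 3), or 25.5 without tumor 1. Tumor 1 was 1.81-fold above tumor 2 (1.65 to 2.00) and 10.6-fold above tumor 3 (8.70 to 13.0). Ifitm3 was therefore high in both tumor 1 and tumor 2 and low in tumor 3, unlike Ifitm1, which was high in tumor 1 only.

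The ISRE cores of Ifitm2 and Ifitm3 are shown to set them beside the IFIT genes, whose order of tumors was another. Ifitm2 had 1 core, at -46 to -37 (chr7:140955973-140956032, minus strand, across the annotated start of the gene). Ifitm3 had 2 cores, at 3 to 12 and 20 to 29, within the first exon (chr7:141010716-141010742, minus strand). Between them lay the core of a gamma-activated sequence (GAS), TTCNNNGAA, from 14 to 22, which overlaps the second ISRE core. The GAS core occurred in 8.30% of the 32851 windows and in those of 2 of the 9 genes, Ifitm3 and Ifit2.
Ifitm2: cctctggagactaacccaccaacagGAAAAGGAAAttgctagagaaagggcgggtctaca
Ifitm3: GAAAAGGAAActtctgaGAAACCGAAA

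IFITM transcripts summed to 352, 56.7 and 9.94 FPKM in tumors 1, 2 and 3. In tumor 1 the sum was led by Ifitm1, with 45.0%, followed by Ifitm2 with 32.5% and Ifitm3 with 22.5%. In tumors 2 and 3 Ifitm3 made up 76.9% and 75.0%, and Ifitm1 4.76% and 7.97%. The makeup was thus alike in tumors 2 and 3, although their sums differed, and was different in tumor 1. The ratio of Ifitm1 to Ifitm3 was 2.00 in tumor 1, against 0.0619 and 0.106 in tumors 2 and 3.

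**Figure D3:**
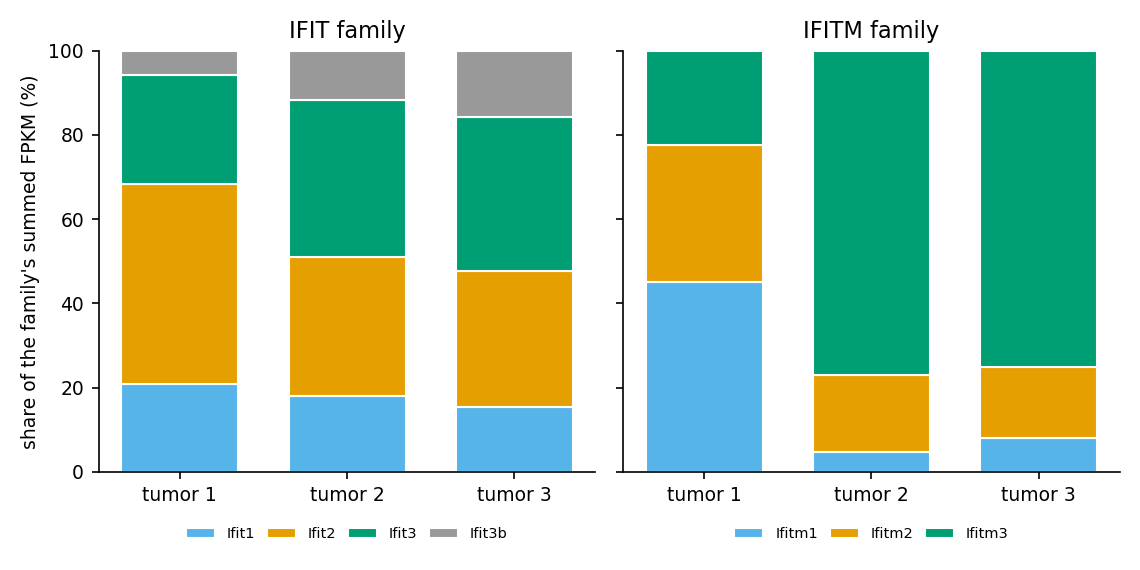
Share of each gene in the summed FPKM of its family (percent) in tumors 1, 2 and 3, with IFIT genes on the left and IFITM genes on the right. Ifit2 goes from 47.7% in tumor 1 to 32.4% in tumor 3, and Ifitm3 from 22.5% in tumor 1 to 76.9% in tumor 2.

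Markers of macrophages and erythroid cells followed the order of the IFITM genes. Of 10 macrophage markers, 9 had the order of tumor 1 over 2 over 3, against 20.5% of all genes, the exception being Cd68, and none was at 3 reads or fewer in any tumor. The 10 summed to 442, 149 and 37.0 FPKM in tumors 1, 2 and 3, and the most abundant, Lyz2, had 215, 33.1 and 20.3 FPKM. Of 4 erythroid markers, summing to 131, 27.1 and 3.46 FPKM, 3 had this order, led by Hba-a1 with 92.3, 19.6 and 1.90 FPKM. For 3 further lists the sums had this order but the single markers were divided. Dendritic cell markers summed to 8.61, 6.73 and 3.37 FPKM, led by Itgax. Of these 5, 3 were highest in tumor 1, against 50.6% of all genes, and 2, Clec9a and Zbtb46, in tumor 2, against 33.7%. Endothelial markers summed to 13.7, 13.1 and 5.18 FPKM, mostly from Pecam1. Of these 6, 3 were highest in tumor 1, against 50.6% of all genes, and 3, Cdh5, Emcn and Vwf, in tumor 2, against 33.7%. The epithelial sums of 14.2, 2.80 and 0.958 FPKM had this order through Cdh1 alone, with 13.7 FPKM in tumor 1, while Epcam, Krt8 and Krt18 were highest in tumor 2 and Krt5 and Krt14 had no read. The part of these cell types in the IFITM values was not tested.

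None of the 13 marker lists had summed FPKM in the order of tumor 2 over 3 over 1 that Isg15, Usp18 and the IFIT genes shared, although single markers did. Tumor 2 carried the highest sums of pancreatic acinar markers, 91.8, 459 and 0.677 FPKM in tumors 1, 2 and 3, with Ctrb1 most abundant and without a read in tumor 3. Fibroblast markers summed to 11.8, 43.3 and 0.371 FPKM, led by Col1a1, and Pdgfra and Lum had no read in tumor 3. Of these 7, 5 were highest in tumor 2, against 33.7% of all genes, and 2, Dcn and Lum, in tumor 1, against 50.6%. NK-cell markers summed to 20.7, 46.0 and 48.5 FPKM, an order set by Eomes. Klrb1c, with 0.308, 5.77 and 3.38 FPKM in tumors 1, 2 and 3, had the order of Isg15. Klra8 was highest in tumor 2, with 0, 12 and 1 reads, too few to order tumors 1 and 3. Ncr1 had 18, 6 and 4 reads, and its order is not resolved. Its ratio was 1.85 (0.704 to 5.70) for tumor 1 over 2 and 1.64 (0.389 to 7.91) for tumor 2 over 3. The part of these cells in the values of tumor 2 was not tested. Tumor 2 had the lowest sums of T-cell markers (1296, 973 and 1354) and B-cell markers (56.2, 13.7 and 104, led by Cd79a). The same held for plasma cell markers (826, 188 and 205, led by Jchain, which was itself lowest in tumor 3). Neutrophil markers (39.6, 1.62 and 17.1, led by S100a9, with no read of Elane) and plasmacytoid dendritic cell markers (8.44, 2.12 and 9.12, led by Spib) also had their lowest sums there. Of the 9 T-cell markers, 3, Cd3e, Cd3g and Lck, had the order of Isg15, against 16.8% of all genes. These orders are weak. For Lck, tumors 2 and 3 were level, at a ratio of 1.00 (0.978 to 1.03). Tumor 1 minus 3 was -0.21 (log2) for Cd3e and -0.22 for Cd3g, smaller than the shift of 0.25 that rescaling to equal sums made.

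**Figure D4:**
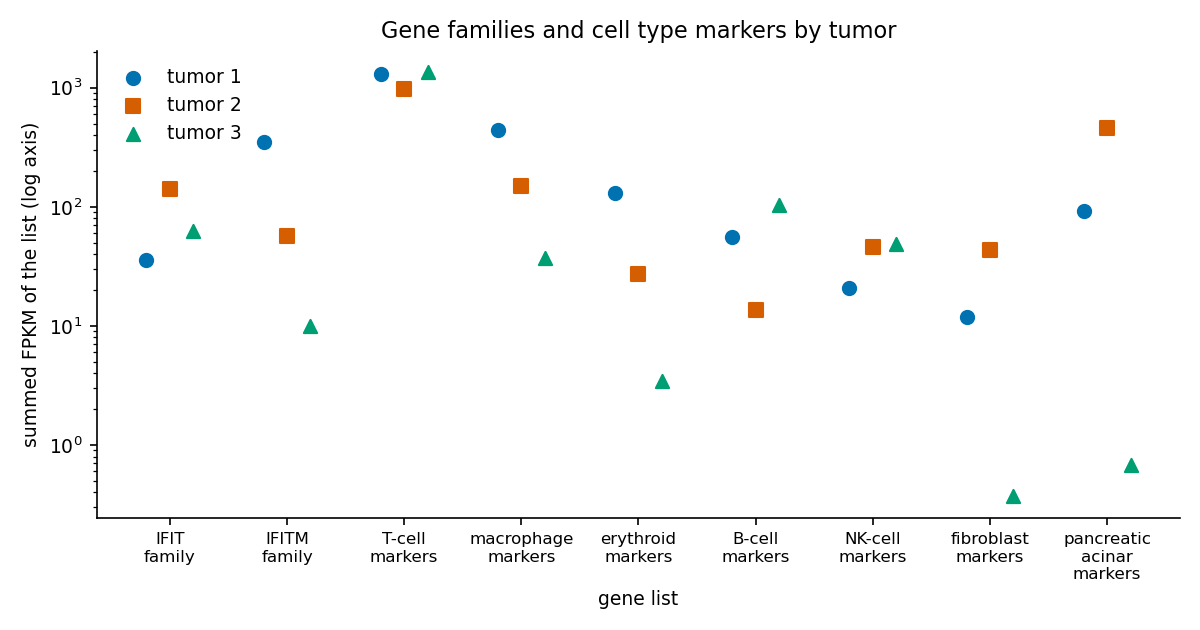
Summed FPKM (log axis) of the IFIT and IFITM families and of 7 cell type marker lists in tumors 1, 2 and 3, 1 point per tumor. The IFITM sums of 352, 56.7 and 9.94 and the macrophage sums of 442, 149 and 37.0 share their order, and no list shown has the order of the IFIT sums.

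Ordered by mean FPKM, the genes ranked Isg15, Ifitm1, Ifitm3, Ifitm2, Usp18, Ifit3, Ifit2, Ifit1, Ifit3b and Ifi44. Most neighbors in this order did not differ beyond their spread over the 3 tumors, and Ifit3 and Ifit2, as well as Ifitm3 and Ifitm2, exchanged places after rescaling to equal sums. Ifit2 exceeded Ifit1 in 3 of 3 tumors, by a mean log2 difference of 1.04 ± 0.16 (SD, n = 3), and Ifit3b exceeded Ifi44 in 3 of 3, by 3.28 ± 2.06. The ranks of Isg15 and Ifitm1 depended on the tumor, since the ratio of Isg15 to Ifitm1 FPKM was 0.165 in tumor 1, against 100.2 and 103 in tumors 2 and 3.

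Among the families' other members, Ifitm10 was lowest in tumor 1, where the IFITM genes were highest, with 0.911, 13.5 and 11.5 FPKM in tumors 1, 2 and 3. Ifitm6, next to Ifitm3 and known from myeloid cells, had 1.76, 0.291 and 0.745 FPKM. Ifitm5, known from bone, had at most 4 reads. Irf7, an interferon-induced transcription factor, lies on the same chromosome, 251936 bases from Ifitm3, and was named after its values were seen. It had 16.8, 132 and 36.7 FPKM, the order of Isg15 and not that of the neighboring IFITM genes.

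Type I and type III interferon ligands were rare. The 17 type I ligand genes together had 5, 37 and 0 reads in tumors 1, 2 and 3. In tumor 2 these reads fell on 6 genes, and in tumor 1 all 5 were of Ifnab. Ifna4 had 13 reads in tumor 2, or 1.22 FPKM, and none in the others, which is at least 7.02-fold higher than in tumor 1 and at least 4.74-fold higher than in tumor 3 when no read is taken as up to 3 reads. Ifna1 had 0.740 FPKM in tumor 2 and Ifna2 0.460, from 8 and 9 reads, and neither had a read in tumors 1 and 3. Ifna5 had 3 reads in tumor 2, which is within the limit that a count of 0 allows. Most type I ligand reads were thus in tumor 2, but the counts are small, and Ifna genes are near-identical copies between which reads may be misplaced.

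The type III ligands Ifnl2 and Ifnl3 had 5 and 3 reads in tumor 2 and none in tumors 1 and 3, with 0.375 FPKM for Ifnl2. Ifng, the type II interferon made by T and NK cells, was highest in tumor 1, with 8.49, 1.10 and 1.12 FPKM in tumors 1, 2 and 3. The tumor highest in Ifng was thus the one with the highest IFITM and the lowest IFIT values.

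Receptor genes were expressed in every tumor, except Ifnlr1, which had at most 4 reads. Ifnar1, a chain of the type I receptor, had 19.0, 25.9 and 10.9 FPKM in tumors 1, 2 and 3. Ifnar2, its partner and the chain that USP18 binds, had 19.1, 42.1 and 25.2 FPKM. Both were highest in tumor 2, as were Isg15 and the IFIT genes. Of 5 receptor genes with a mean of at least 1 FPKM, 3 were highest in tumor 2, against 33.7% of all genes. After rescaling to equal sums this count was 4. Of the interferon gamma receptor, Ifngr1 was highest in tumor 2, with 64.1, 182 and 72.3 FPKM, and Ifngr2 in tumor 1, with 5.54, 1.05 and 1.09 FPKM. Il10rb, shared by the type III receptor, was nearly level at 24.5, 27.5 and 29.7 FPKM.

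Of 6 transducers of the signal, 5 were highest in tumor 2, against 33.7% of all genes, with a median log2 difference from tumor 1 of 0.68, against 2.12 for the IFIT genes and -0.17 for the 11190 genes. Stat2, the only one at least 2-fold above the next tumor, had 12.5, 31.3 and 8.11 FPKM in tumors 1, 2 and 3. Irf9 had 13.4, 19.3 and 16.4 FPKM. The kinases Jak2 and Tyk2 had 27.8 and 13.0 FPKM in tumor 2, where they were highest, against lowest values of 17.2 and 7.64 in tumor 3, but Tyk2 was nearly equal in tumor 1, with 12.0, and was highest there after rescaling to equal sums. Jak1 was highest in tumor 3, with 64.3, 117 and 128 FPKM. By their medians, the transducers thus differed less between tumors 1 and 2 than the IFIT genes, although Stat2 spanned a wider range than Ifit1 and Ifit2.

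Of 4 inhibitors of the pathway, 3 were highest in tumor 1, against 50.6% of all genes, and 1 in tumor 2, against 33.7%. Socs1 was highest in tumor 2, with 39.3, 54.0 and 14.0 FPKM in tumors 1, 2 and 3, and Socs3 in tumor 1, which stood above the 14.3 and 47.8 FPKM of tumors 2 and 3. Pias1 had 7.10, 4.24 and 5.63 FPKM, and Ptpn2 stayed between 14.0 and 15.9 and was highest in tumor 2 under median-of-ratios scaling. Usp18, itself an inhibitor at the receptor, ranged more widely than any of them.

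All 4 enzymes that attach ISG15 were highest in tumor 2, as were 33.7% of all genes. Uba7, which activates ISG15, had 15.2, 30.8 and 18.2 FPKM in tumors 1, 2 and 3. Ube2l6, which receives it, had 5.35 and 5.11 FPKM in tumors 1 and 3, lay above them in tumor 2 by 1.88 and 1.95 on the log2 scale, and was the only one at least 2-fold above the next tumor. The ligases Herc6 and Trim25 had 13.9 and 23.9 FPKM in tumor 2, with lowest values of 6.96 and 11.5 in tumor 3. Isg15 varied more than its activating enzyme, and the ratio of Isg15 to Uba7 FPKM was 1.71, 8.77 and 4.50 in tumors 1, 2 and 3.

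A wider list of 34 type I interferon-induced genes, none of them among the 10, was set beside these values, and 33 were found. Tumor 2 was highest for 31 of the 33, against 33.7% of all genes, and for 16 by at least 2-fold, against 5.30%. The other 2 were Samhd1, with 73.4 and 69.8 FPKM in tumors 1 and 2, which exchanged places under median-of-ratios scaling, and Ifi27, highest in tumor 3 with 80.6 FPKM. The whole order of tumor 2 over 3 over 1 was shared by 24 of the 33, against 16.8% of all genes. For some of the 24, tumor 3 exceeded tumor 1 only within counting error. Such genes, named after their values were seen, were Adar, at a ratio of 1.02 (0.976 to 1.07), Oasl2, at 1.03 (0.946 to 1.13), and Ddx60, at 1.08 (0.987 to 1.19). The count of this order under other scalings is not given here. For the list, the median log2 difference of tumor 2 from tumor 1 was 1.48, and from tumor 3 1.10, against -0.17 and 0.06 for the 11190 genes. The corresponding medians were 2.12 and 1.20 for the IFIT genes and -3.45 and 2.53 for the IFITM genes. In tumor 2 the IFITM genes were thus below tumor 1, where the IFIT genes and this list were above it, while by their medians all 3 sets were above tumor 3.

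**Figure D5:**
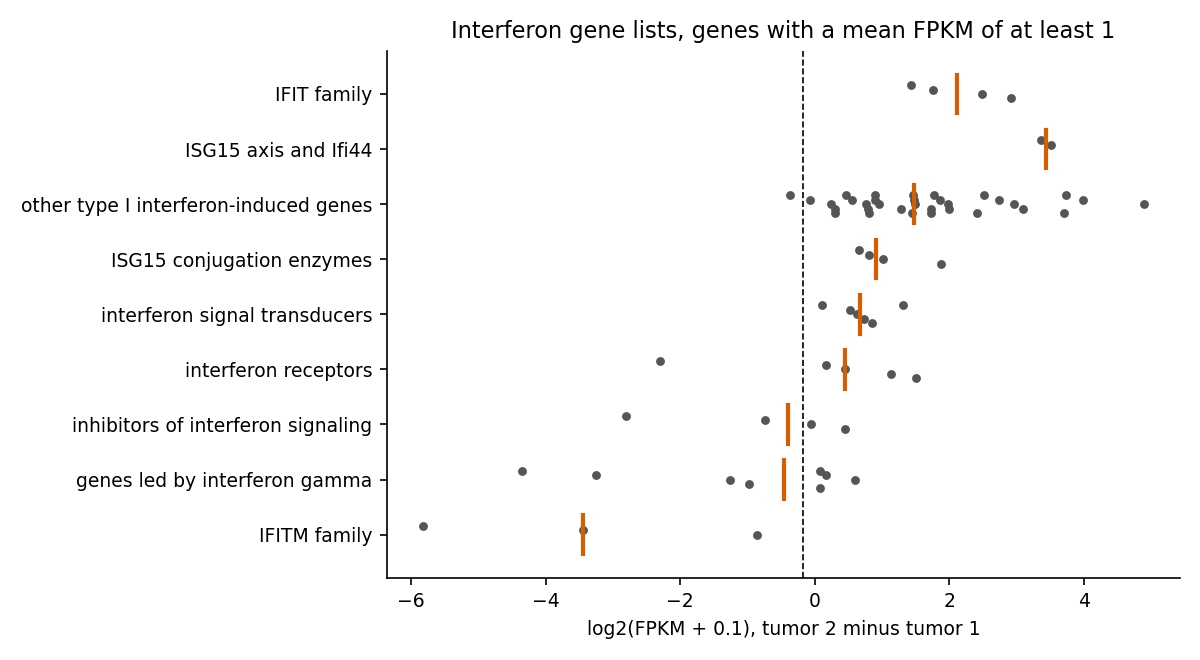
Log2 difference of tumor 2 from tumor 1 for each gene of 9 interferon lists with a mean of at least 1 FPKM (points), with the list median (orange bars) and the median of 11190 genes, -0.17 (dashed line). List medians run from -3.45 for the IFITM family to 3.44 for Isg15 with Usp18.

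The most abundant genes of the wider list were Ifi27l2a, Shisa5, Bst2, Lgals3bp and Zbp1. Ifi27l2a had 145, 770 and 444 FPKM in tumors 1, 2 and 3, and Shisa5 had 197, 343 and 270. Bst2, a membrane protein that tethers budding virus, had 53.4, 459 and 138 FPKM, and Zbp1, a sensor of Z-form nucleic acid, had 42.0, 144 and 52.1. Lgals3bp had 96.6, 187 and 115 FPKM. All 5 were highest in tumor 2 and lowest in tumor 1, the order of Isg15.

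Of 10 genes led by interferon gamma, 8 had a mean of at least 1 FPKM. Of these, 4 were highest in tumor 1, against 50.6% of all genes, and 4 in tumor 2, against 33.7%. The count for tumor 1 was thus near the share of all genes. By at least 2-fold, 3 of the 8 were highest in tumor 1, against 6.30% of all genes, and 0 in tumor 2, against 5.30%. The most abundant, Igtp, had 119, 126 and 70.8 FPKM in tumors 1, 2 and 3. Gbp2 had 140, 58.7 and 29.0 FPKM, and Iigp1 50.9, 5.25 and 6.34. Irf1 was highest in tumor 2, with 50.4, 76.5 and 57.0 FPKM, and Irgm1 was nearly level at 18.8, 19.9 and 16.0. Cxcl9, named after its values were seen, had 37.8, 1.77 and 0.447 FPKM, the order of the IFITM genes. Under rescaling to equal sums, 2 in place of 4 of these genes were highest in tumor 2, and 6 in place of 4 in tumor 1. With median-of-ratios factors, 3 were highest in tumor 1.

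Genes with the most similar profile over the 3 tumors were sought among 6157 genes with a mean of at least 5 FPKM, by the Euclidean distance of centred log2(FPKM + 0.1) values. With 3 points per profile, such likeness is a description only. Nearest to Isg15 were Pik3ap1, Bst2, Cmpk2, Prrt1 and Mx1, at distances of 0.165 to 0.269. Among them Mx1, which encodes an antiviral GTPase, had 6.36, 86.6 and 23.8 FPKM in tumors 1, 2 and 3. For Ifit1 they were Sntb1, Gbp10, Zbp1, H2-Q6 and Dennd4a, at 0.0277 to 0.0582, and H2-Q6 had 49.8, 163 and 65.0 FPKM.

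Nearest to Ifitm3 were Ccr4, Clu, Ccl21a, Tgfbi and Socs2, at distances of 0.202 to 0.354, with 18.2, 10.7 and 1.43 FPKM for Ccr4, a chemokine receptor. For Ifitm1 they were Gm15056, Pdlim4, Prnp, Marco and Tcrg-C2, and all but Gm15056, at 0.101, lay at 0.979 to 1.10. Marco, a macrophage scavenger receptor, had 111, 2.44 and 1.60 FPKM. Between the 10 genes themselves, Ifit1 and Ifit2 lay closest, at 0.226, followed by Isg15 and Usp18 at 0.324, and Ifitm1 and Usp18 lay farthest apart, at 7.72.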

How the data were processed

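RNA-seq values of 3 Dnmt3b+/- PTCL were used as the authors deposited them, in FPKM on a linear scale. Per the study's methods, trimmed paired-end reads of 150 bases were aligned to mm10 with STAR, and those mapped with a quality of 50 or more were quantified with SeqMonk. Strandedness is not given in the sources used here. WGBS samples were not analysed here.

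The genes and the lists were chosen with earlier results of these data known. Where a symbol was repeated (48 symbols), the entry with the highest mean was used. Genes with no reads carry a value that equals 0.9 read, from which the depth and, with GENCODE M21 exon lengths, the reads per gene were recovered. Of 34125 genes with a length, 92.5%, 92.6% and 92.6% gave whole reads (within 0.02) in tumors 1, 2 and 3. Intervals are exact at 95% (Poisson for a level, conditional binomial for a ratio) and cover counting error only. A count of 0 allows up to 3 reads. Differences are on log2(FPKM + 0.1), which understates those of low genes, and shares of genes refer to means of at least 1 FPKM. No test was made.

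Named genes are the 10 genes, all genes of the IFIT, IFITM and IFI44 families, the ISG15 enzymes and the interferon ligands, receptors, transducers and inhibitors above 0.2 FPKM in at least 1 tumor, the 5 genes with the highest mean of each other list, the 5 nearest profiles of Isg15, Ifit1, Ifitm3 and Ifitm1, and of each marker list the most abundant gene and those near 0. Others are marked where named. A few genes of these lists are not reported here by name. Alternatives were other scalings, pseudocounts, thresholds and filters, summed symbols, means for medians, and each tumor left out. Steps were tested on simulated data. Scripts ran in Python 3.11 with NumPy 2.4.6, SciPy 1.17.1 and pandas 2.3.3, and plots were drawn with matplotlib 3.10.9.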

Additional observations from a re-analysis of the deposited data

How the results depend on the processing

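No paired analysis was possible because the RNA-seq samples form a single group. The orders of the tumors given for the 10 genes held under both other scalings, except that Ifit2 in tumor 3 minus tumor 1 went from 0.24 to -0.0076 (log2) with FPKM rescaled to sum to 1000000, an alternative chosen for these differences after seeing the data. Rescaling lifts all values by construction, and the mean became 68.4 for Ifit1, 135 for Ifit2, 134.9 for Ifit3, 45.1 for Ifit3b, 285 for Ifitm1, 221.3 for Ifitm2, 221.0 for Ifitm3, 4.38 for Ifi44, 603 for Isg15 and 189 for Usp18. It shifted the median of all genes by -0.13 for tumor 2 minus 1, 0.11 for 2 minus 3 and 0.25 for 1 minus 3, and median-of-ratios factors by 0.15 and -0.19 for the first and the last. With a threshold of 3-fold, 1 gene in place of 5 was highest in tumor 2, while the count for tumor 1 was 2 at both thresholds. The share of all genes at 3-fold is not given here. The median of the 10 genes for tumor 1 minus 3 went from -0.30 to 1.10 when the mean replaced it, since the mean follows the IFITM genes. Of the wider type I list, 0 in place of 1 gene was highest in tumor 1 with median-of-ratios factors. Of the interferon gamma list, 2 in place of 4 were highest in tumor 2 after rescaling, and 6 in place of 4 in tumor 1. Of the transducers, 1 in place of 0 was then highest in tumor 1, and of the inhibitors 2 in place of 1 were highest in tumor 2 with median-of-ratios factors. The cause was not tested. Leaving out each tumor in turn, 9 to 10 of the genes were above 0.2 FPKM in every tumor, and the means of Ifitm1 and Isg15 ranged from 1.75 to 80.4 and from 53.9 to 176. Depth limits Ifi44, Ifitm1 and Ifitm2 in tumor 3 and the type I and type III ligands, all at few reads.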
